A study of Mus musculus with 6 samples.

Results

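The genes described here are 10 transcription regulators of mouse skin cells, many of them rapidly inducible. They comprise Fos, Fosb, Fosl1 and Fosl2 (FOS family), Jun, Junb and Jund (JUN family), and the immediate early genes Egr1, Ier2 and Atf3. They were chosen by symbol, and every probe whose RefSeq accession maps to one of these symbols was taken, which gave 11 probes for 10 genes among 55681 probes and 17848 genes tested. RNA was measured on 1-colour Agilent arrays from male mice whose skin was depilated and then painted with vehicle (acetone) or with 7,12-dimethylbenz[a]anthracene (DMBA), a polycyclic hydrocarbon that damages DNA after metabolic activation. Each group held 3 samples from different mice, collected 3 days after exposure. The sorted epidermal cells had high K15-EGFP, a keratin 15 reporter, high ITGA6 and no surface ScaI; they are cells that the submitters name as stem cells of the hair follicle together with those of the hair germ. Depilation and the EGFP reporter were shared by both groups. The strain and the mouse age are not given in the sources used here.

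AP-1 is a dimer of basic leucine zipper proteins, usually a FOS protein with a JUN protein or a pair of JUN proteins. Several of its subunits are encoded by genes that growth factors, stress and wounding switch on through MAP kinases without new protein synthesis. Several of their messages are degraded within a short time. In skin, AP-1 takes part in keratinocyte proliferation, wound repair and differentiation, and it is needed for tumour promotion after DMBA initiation. The same genes also respond while tissue is digested and cells are sorted, so an array of sorted cells reads any induction during the preparation together with the state in the animal. These data hold no unsorted sample with which to separate them.

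Promoter stretches of Fos, Fosb and Jun are shown because these genes are textbook cases of induction through sites close to the start, and because the Fos and Fosb values differed in which arrays were high. RefSeq promoter windows (GRCm38.p6, 250 bases before to 50 after the annotated start) were found for 7 of the 10 members. Each line below gives the last 150 bases before the start, 5′ to 3′ on the gene's strand, with matches to TGACG (the core of the cAMP response element, contained in the full element TGACGTCA), TGACATCA or TATAAA in capitals. Matches were sought on both strands.
Fos, chr12:85473740-85473889, plus strand: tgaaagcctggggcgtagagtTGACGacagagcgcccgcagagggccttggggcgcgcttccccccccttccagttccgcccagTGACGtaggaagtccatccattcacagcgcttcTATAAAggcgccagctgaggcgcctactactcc
Fosb, chr7:19310046-19310195, minus strand: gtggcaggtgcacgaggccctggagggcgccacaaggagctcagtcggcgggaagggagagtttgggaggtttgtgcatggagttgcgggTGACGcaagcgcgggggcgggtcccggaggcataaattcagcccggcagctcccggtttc
Jun, chr4:95052223-95052372, minus strand: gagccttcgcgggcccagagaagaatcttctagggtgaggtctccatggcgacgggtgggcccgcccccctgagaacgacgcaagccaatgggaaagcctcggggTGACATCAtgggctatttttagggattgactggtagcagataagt

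Fos carries TGACG starting 129 and 66 bases before the annotated start, and TATAAA starting 33 bases before it. Fosb carries TGACG 60 bases before its start, close to the position of the second Fos match, and Jun carries TGACATCA 45 bases before its start. TGACG was found in 4 of the 7 member windows and in 20.8% of all 32851 windows, TGACATCA in 1 member window and 3.62% of all, and TATAAA in 2 member windows and 13.6% of all. These 3 motifs were added after the windows had been seen. The motifs listed earlier matched none of the 7 member windows (0 each): the AP-1 site TGACTCA, the full cAMP response element, the EGR site GCGTGGGCG and the CArG box of serum response factor. Of all windows, 5.2%, 1.79%, 0.612% and 1.63% held them. Sites more than 250 bases before the start were not searched, and Egr1, Ier2 and Fosl1 had no window. The absence of a match is therefore not the absence of such a site from these genes.

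Between vehicle and DMBA, none of the 10 members passed the test over all genes (0 higher and 0 lower; limma with Benjamini-Hochberg adjustment). In the whole series 0% of the 17848 genes passed in either direction, and 5.23% had an unadjusted p under 0.05. Of the members, 1 had an unadjusted p under 0.05, Ier2. The groups did not overlap in 2 members, Ier2 and Fosb, both with the DMBA arrays above the vehicle arrays, where 4.87% of all genes had that pattern and 5.17% the opposite one. The mean was higher after DMBA in 7 members and lower in 3, beside 48.8% of all genes with a higher mean, and the median log2 fold change was 0.47, against -0.01 over all genes tested. By rank, vehicle 3 was the lowest array for 5 members and DMBA 1 the highest for 4.

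**Figure D1:**
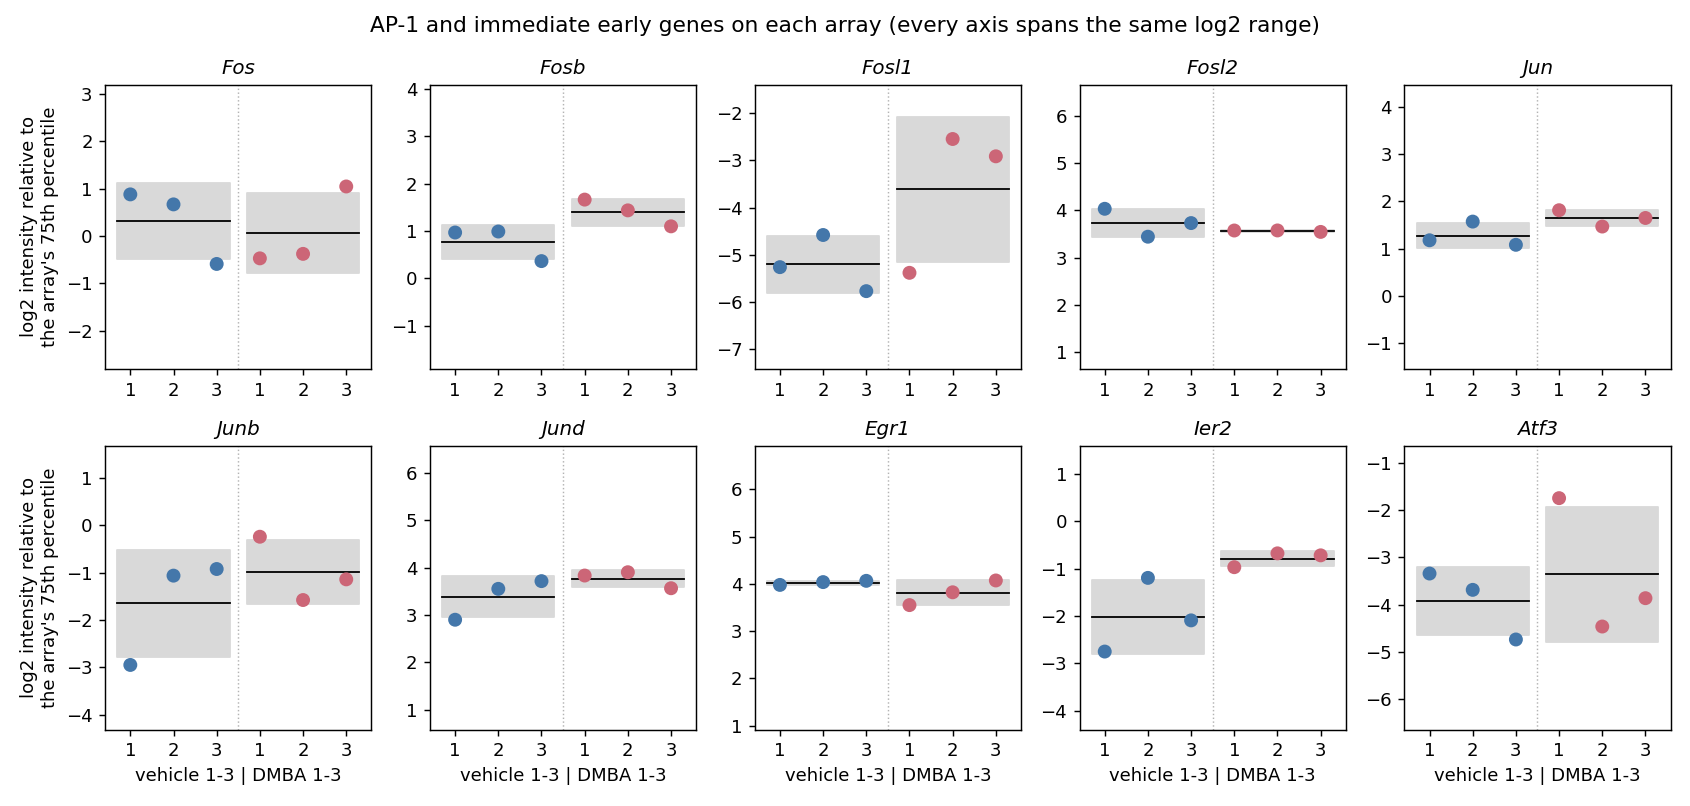
Log2 intensity of each member relative to the array's 75th percentile (vertical axis) on vehicle arrays 1 to 3 (blue) and DMBA arrays 1 to 3 (red). Each point is 1 array, lines are group means, grey bands are 1 SD, and every panel spans the same range; Ier2 and Fosb are the members in which the groups do not overlap, and Fos has high and low arrays in both groups.

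All levels below are log2 intensities minus the log2 of the array's 75th percentile, so that 0 is the intensity of that percentile. Differences are read between arrays for 1 probe, since probes differ in brightness for reasons other than abundance. Where probes are ranked or summed by brightness, as in the signal groups and the marker sums, the order is not one of abundance. Differences are log2 fold changes, DMBA minus vehicle, from limma over all 6 arrays.

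Ier2, an immediate early gene that encodes a nuclear regulator of transcription, had the smallest p among the members. Its levels were -2.75, -1.20 and -2.09 on vehicle arrays 1 to 3 and -0.97, -0.68 and -0.72 on DMBA arrays 1 to 3. The DMBA arrays lay within a range of 0.29, while the vehicle arrays spanned 1.56, and the highest vehicle array was only slightly below the lowest DMBA array. This gave a log2 fold change of 1.23 (SE 0.42), a 2.34-fold difference with a 95% interval from 1.16-fold to 4.69-fold before adjustment. The unadjusted p was 0.0243 and the adjusted p 0.894 (limma), so the difference did not pass. Without vehicle 1, which lay alone on its slide, it was 0.86 with an unadjusted p of 0.0574, and over all 15 alternatives the fold change stayed above 0 (0.86 to 1.63; adjusted p from 0.555 to 0.999).

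Fosb, whose protein pairs with JUN proteins, was the other member without overlap. Its levels were 0.97, 0.99 and 0.37 in vehicle and 1.67, 1.44 and 1.10 in DMBA. Every DMBA array exceeded every vehicle array, by the narrowest margin between DMBA 3 and vehicle 2. Its log2 fold change was 0.63 (SE 0.29; 95% interval -0.07 to 1.32; adjusted p = 0.969, limma), or 1.54-fold. It ranged from 0.42 to 0.92 over the alternatives, and adjusted p was never below 0.675.

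Fos, the founding partner of JUN in AP-1, behaved differently: its arrays fell into a high and a low set that crossed the treatment. Its levels were 0.88, 0.67 and -0.59 in vehicle and -0.47, -0.38 and 1.04 in DMBA. Thus vehicle 1, vehicle 2 and DMBA 3 were high, vehicle 3, DMBA 1 and DMBA 2 were low, and no array lay in the gap of 1.05 (2.06-fold) between them. The Fos probe is printed 10 times on each array, which shows the noise between spots. Spots of 1 array share 1 sample, so they do not show the error of preparing, labelling and hybridizing it. Within an array the SD of those spots was between 0.04 and 0.08, with a median of 0.06, and the widest spread of spots on 1 array was 0.22. The SD between arrays of a group was 0.82, or 13.6 times the median spot SD. The 330 kept probes with 10 spots, Fos included, had a median spot SD of 0.07. That ratio had a median of 5.68 over these 330 probes, and 93.6% of them had a smaller one than Fos. The difference between treatments was smaller than the spread between arrays, with a log2 fold change of -0.25 (SE 0.57; 95% interval -1.63 to 1.13; adjusted p = 1.00, limma). Its sign turned without vehicle 1 (0.027) and without DMBA 1 (0.016), and it was -0.74 without DMBA 3. Vehicle 1 lay alone on its slide, while vehicle 2 and DMBA 3 were on the same slide as the low arrays. A difference between slides cannot be told apart from vehicle 1 itself. The labels name no other difference between the high and the low arrays.

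**Figure D2:**
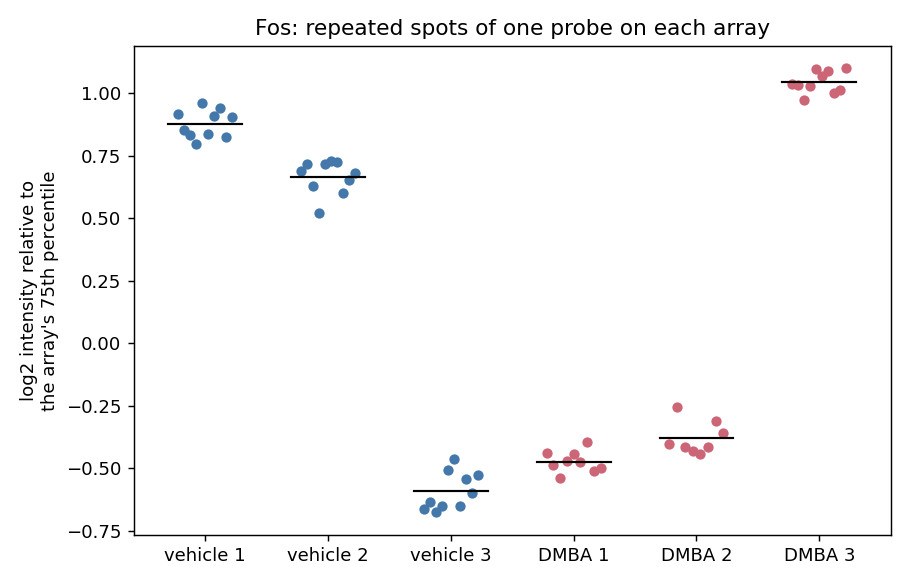
Log2 intensity of each spot of the Fos probe relative to the array's 75th percentile (vertical axis) on the 6 arrays (horizontal axis; blue vehicle, red DMBA), with flagged spots left out and the mean as a line. Vehicle 1, vehicle 2 and DMBA 3 lie between 0.67 and 1.04 and the other arrays between -0.59 and -0.38, while spots of 1 array spread over at most 0.22.

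The genes with the closest pattern to Fos over the 6 arrays, by the root mean square distance between profiles centred on their means, were Ttl, a tubulin tyrosine ligase gene (0.14), the olfactory receptor gene Olfr73 (0.18) and the vomeronasal receptor gene Vmn2r54 (0.21). The latter 2 were not well above background on every array. None of these is a member, and the member closest to Fos was Egr1 at 0.60, with 8.04% of all genes closer. Fosb lay at 0.82 and Jun at 0.71, with 52.2% and 26.3% of genes closer. Fosl2 lay at 0.69, with 20.5% of genes closer. This distance depends on how far a gene varies as well as on which arrays are high, so a gene that hardly varies is not far from Fos.

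Egr1, a zinc finger factor induced by serum and growth factors through serum response factor, was among the steadiest members. Its levels were 3.98, 4.04 and 4.06 in vehicle, a range of 0.09, and 3.55, 3.82 and 4.07 in DMBA. DMBA 1 was the lowest array and DMBA 3 the highest, so the groups overlapped. For Egr1 the log2 fold change was -0.21 (SE 0.23; adjusted p = 1.00, limma), with a 95% interval from 0.59-fold to 1.27-fold. The difference stayed below 0 in all 15 alternatives, from -0.37 to -0.08.

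Fosl1, which encodes the FOS-related protein FRA1 that wounded and migrating keratinocytes make, had the largest fold change of the members in the main analysis and the dimmest probe. Its levels were -5.26, -4.58 and -5.77 in vehicle and -5.38, -2.55 and -2.92 in DMBA, and vehicle 3 was not well above background. DMBA 2 and DMBA 3 were well above the other 4 arrays, while DMBA 1 lay among the vehicle arrays. The log2 fold change was 1.59 (SE 0.78; 95% interval -0.31 to 3.48; adjusted p = 0.969, limma), or 3.00-fold. It was 2.47 without DMBA 1, with an unadjusted p of 0.00195 and an adjusted p of 0.453, and 1.05 without DMBA 2. With normexp background correction it was 1.05, below the 1.10 of Ier2. DMBA 2 and DMBA 3 were also the arrays with the smallest share of probes well above background, 69.3% and 73.5%, against 77.0% to 83.6% on the others. With that share as a covariate the Fosl1 fold change was 0.59, and the part of that share in the result was not tested.

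Fosl2 encodes FRA2, the FOS protein of differentiating keratinocytes, and was read by 2 probes that differed in sign. On the brighter probe the levels were 4.03, 3.44 and 3.73 in vehicle and 3.57, 3.57 and 3.54 in DMBA, with a log2 fold change of -0.17 (SE 0.24; adjusted p = 1.00). On the dimmer probe they were 1.49, 2.42 and 2.47 in vehicle and 3.18, 2.11 and 2.07 in DMBA, with a log2 fold change of 0.33 (SE 0.44; adjusted p = 1.00 over all kept probes, limma). Vehicle 1 was the highest array on the first probe and the lowest on the second, and the groups overlapped on both. No direction for Fosl2 can be given from these probes, and their mean gave 0.079.

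The JUN family had means above those of vehicle in all 3 genes, and none passed. Jun, the main DNA-binding partner of FOS, lay at 1.18, 1.57 and 1.08 in vehicle and 1.82, 1.47 and 1.65 in DMBA. Only vehicle 2 and DMBA 2 overlapped. The difference in log2 level was 0.37 (SE 0.24; 95% interval -0.22 to 0.95; adjusted p = 1.00, limma), and it stayed above 0 in every alternative, from 0.27 to 0.57.

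Jund, which is expressed in resting cells and is less inducible than its relatives, lay at 2.90, 3.55 and 3.71 in vehicle and 3.83, 3.90 and 3.56 in DMBA. This gave 0.38 (SE 0.29; adjusted p = 1.00, limma) as the log2 fold change. Without vehicle 1, the lowest array, it was 0.13. Junb, a JUN protein that can hold back proliferation, lay at -2.95, -1.06 and -0.92 in vehicle and -0.24, -1.58 and -1.14 in DMBA. Its log2 fold change was 0.66 (SE 0.64; adjusted p = 1.00, limma), and it was 0.0061 without vehicle 1. Vehicle 1 was thus the lowest array for Junb, Jund and Ier2, and 2 of these 3 differences were close to 0 without it. Junb, Jund and Ier2 all lie on chromosome 8, with 17 protein-coding genes between Junb and Ier2 in the GRCm38.p6 annotation. Any part of their position in these values was not tested.

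Atf3, a stress-induced factor of the ATF family that is also a target of p53, was high on 1 array. Its levels were -3.34, -3.69 and -4.73 in vehicle and -1.75, -4.46 and -3.86 in DMBA. DMBA 1 was the highest array by far, while DMBA 2 and DMBA 3 lay inside the vehicle range. The log2 fold change was 0.56 (SE 0.76; 95% interval -1.28 to 2.41; adjusted p = 1.00, limma), and without DMBA 1 it was -0.24. DMBA 1 had the lowest 75th percentile, 1355 intensity units against 1758 to 2274 on the other arrays. Any part of that in the Atf3 values was not tested. With quantile normalization the Atf3 log2 fold change was 0.55. With the percentage of probes above background in the model, the Atf3 fold change was 2.06, with an unadjusted p of 0.00089 and an adjusted p of 0.612.

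**Figure D3:**
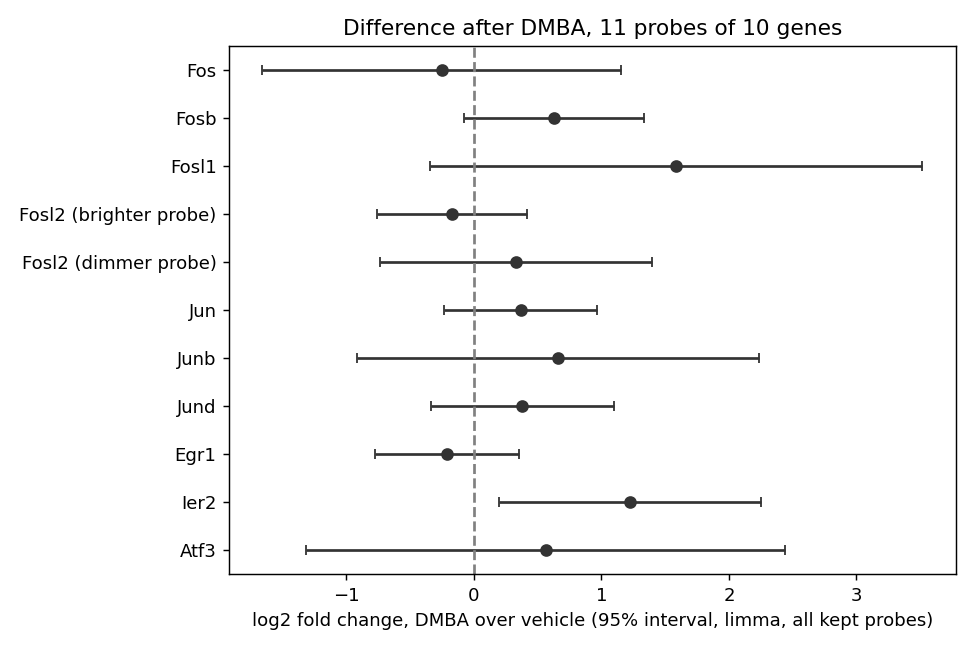
Log2 fold change, DMBA over vehicle (horizontal axis), of the 11 probes of the 10 members, with 95% intervals from limma fitted over all kept probes and not adjusted for the number of probes. The interval of Ier2 is the only one that does not include 0, and the probes of Fosl2 lie on either side of 0.

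The spread of the members between arrays of a group was not the same for all. When genes were cut into 3 equal groups on mean signal, in the brightest group, where the median within-group SD was 0.29, Egr1 (0.19), Fosl2 (0.21) and Jun (0.22) were below it and Fosb (0.32) and Jund (0.33) slightly above. In the middle group, where the median was 0.50, Junb (0.93) and Fos (0.82) exceeded the SD of 86.8% and 81.4% of genes, while Ier2 (0.56) was near the median. Fosl1 (1.17) and Atf3 (1.13) exceeded 79.8% and 78.5% of the genes of the dimmest group. Over all 6 arrays Egr1 ranged 1.43-fold.

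The genes around AP-1 were taken from 6 further lists, with p-values adjusted over all 17848 genes, and no gene of any list passed (0 higher, 0 lower). At unadjusted p under 0.05, 2.73% of all genes were higher and 2.49% lower. In the list of other immediate early genes, 38 of 40 were tested, of which 23 had means above vehicle and 15 below (median log2 fold change 0.16), and 4 were higher and 0 lower at unadjusted p. The groups did not overlap in 6 of the 38 (15.8%, beside 4.87% of all genes), all with DMBA above. Like the members and the other lists, this list was chosen with earlier results of these data known. Its counts are therefore not independent evidence of a direction. Plk3, which is in both the 4 and the 6, was kept for testing through its DMBA arrays. Btg2, an antiproliferative target of p53 as well, had a mean level of -1.39 ± 0.25 in vehicle (SD, n = 3 here and below) and -0.23 ± 0.46 after DMBA, with a log2 fold change of 1.16 (SE 0.31). Ccn1, a matrix protein induced by serum, had a value of 1.56 (SE 0.54), and the kinase Plk3 2.19 (SE 0.77; 1.07 with normexp background correction) with only 1 vehicle array well above background. On the other side Egr2, a relative of Egr1, had a value of -0.999 (SE 0.53), Nfkbiz, a modulator of NF-kappaB, -0.93 (SE 0.56) and the kinase Sik1 -0.43 (SE 0.37), each with overlapping groups. The count of 4 was between 1 and 5 when single arrays were left out, lowest without DMBA 3 and 2 without vehicle 3, DMBA 1 or DMBA 2, and that of lower genes was 1 without vehicle 3 or DMBA 3.

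Among the other basic leucine zipper factors, 29 of 30 were tested, 11 with means above vehicle and 18 below (median -0.17), with 1 higher and 1 lower at unadjusted p (1 to 2 and 1 to 3 when single arrays were left out). Jdp2, a JUN dimerization partner that represses AP-1, lay at -0.23 ± 0.07 in vehicle and 0.51 ± 0.28 in DMBA (log2 fold change 0.74, SE 0.24). The small MAF factor Mafk had a value of 0.80 (SE 0.34), and Batf2 0.98 (SE 0.58) with overlapping groups. Creb1, which binds the cAMP response element, had a value of -0.62 (SE 0.26, and 0.14 on a dimmer probe) and Maf -0.61 (SE 0.27). In both genes every DMBA array lay below every vehicle array. That pattern was found in 3 of the 29 (10.3%, beside 5.17% of all genes), and the opposite in 2 (6.9%, beside 4.87%).

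Of the kinases and factors that induce AP-1, 34 of 35 were tested, 15 with means above vehicle and 19 below (median -0.11). Every DMBA array lay below every vehicle array in 5 of the 34 (14.7%, beside 5.17% of all genes). The opposite held in 1 (2.94%, beside 4.87%). At unadjusted p 1 was higher and 2 lower; the 2 became 0 without vehicle 2, without vehicle 3, without DMBA 3 and with the replicate block, and 1 without DMBA 1 or DMBA 2. Mapk13, the p38 delta kinase of keratinocytes, lay at 1.59 ± 0.59 in vehicle and 3.06 ± 0.42 in DMBA, with a log2 fold change of 1.46 (SE 0.39), and Map2k7, a kinase that activates JNK, had a value of 1.03 (SE 0.47) with overlapping groups. Rps6ka3, a kinase downstream of ERK, had a value of -0.69 (SE 0.28; from -0.48 to 0.81 on dimmer probes) and Mapk7, which encodes ERK5, -0.50 (SE 0.23). Of the feedback inhibitors of MAP kinase signalling, 21 of 22 were tested, 8 with means above and 13 below (median -0.13), and 0 were higher and 1 lower at unadjusted p (0 to 1 each when single arrays were left out). Dusp10, a phosphatase of JNK and p38, had a value of -0.97 (SE 0.33) and Dusp14 -0.48 (SE 0.23), while Dusp6, a phosphatase of ERK, had a value of 0.43 (SE 0.22). These 3 were the only genes of the list in which the groups did not overlap. They made up 4.76% of the list with DMBA above and 9.52% with DMBA below. Of all genes, 4.87% and 5.17% had those patterns.

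Known AP-1 target genes of keratinocytes were the list with the most members at unadjusted p: 9 of the 32 tested were higher and 0 lower (28.1%, beside 2.73% of all genes higher), with 21 means above vehicle, 11 below and a median of 0.21. This list was drawn up with earlier results of these data known and holds wound keratins already seen to differ, so its count is not independent evidence of its direction. Krt6a and Krt6b, keratins made after wounding, had values of 1.94 (SE 0.37) and 1.44 (SE 0.29; 3.68 on a dimmer probe), and the heme oxygenase gene Hmox1, which other stress factors also induce, had a value of 1.08 (SE 0.27; a dimmer probe gave -0.28). Vegfa had a value of -0.80 (SE 0.53), Plaur, the urokinase receptor gene, -1.43 (SE 0.78) and the alarmin gene S100a9 -1.93 (SE 1.41), each with overlapping groups. Plaur and S100a9 were well above background on only 2 DMBA arrays each. Plaur was -0.61 with normexp background correction and also without DMBA 1, and S100a9 was -1.15 with normexp and between -3.38 (without vehicle 1) and -1.01 (without vehicle 2) when single arrays were left out. The count of 9 was between 6 and 9 when single arrays were left out. The count of lower genes was 1 without vehicle 1 and with the replicate block, 2 without DMBA 3, and 2 with the share of probes above background as a term.

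**Figure D4:**
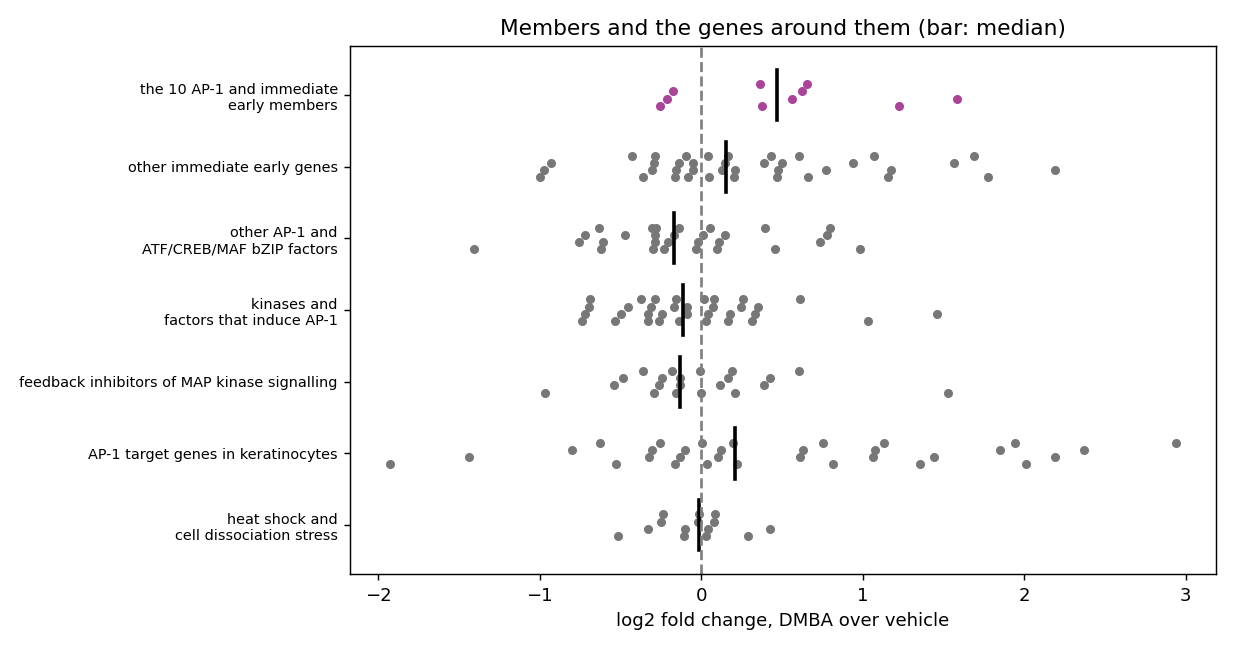
Log2 fold change, DMBA over vehicle (horizontal axis), of every tested gene of the 10 members (purple) and of the 6 further lists (grey), with the median of each as a bar. The medians are 0.47 for the members and between -0.17 and 0.21 for the other lists, and no gene shown passed the test over all genes.

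Heat shock genes, which like immediate early genes respond to dissociation of tissue, had a median of -0.02 over the 14 tested, with 6 means above vehicle, 8 below and 0 at unadjusted p in either direction (1 lower without DMBA 1). Hspb1, a small heat shock protein gene of keratinocytes, was the 1 gene of the list without overlap (0.29, SE 0.21). It had DMBA above, as did 4.87% of all genes. Hspa1a, the inducible HSP70 gene, had a value of 0.43 (SE 0.62). It was -0.25 without vehicle 1, where its level was lowest at -0.20. Dnajb4 and Hspa5 had values of -0.52 and -0.33. On the other 5 arrays Hspa1a lay between 0.98 and 1.99. Any part of cell dissociation in the Fos values was not tested.

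All 10 fixed markers of stem cells and basal keratinocytes, among them Krt15, Itga6, Cd34 and Lhx2, were well above background on all 6 arrays. That alone does not single out a cell type, since 69.3% to 83.6% of all probes were well above background on each array. It also held for 7 of 8 melanocyte markers, 8 of 10 leukocyte markers, 5 of 7 fibroblast markers and 2 of 4 endothelial markers. The stem cell and basal keratinocyte markers summed on the linear scale, in multiples of the 75th percentile, to 343 to 406 in vehicle and 359 to 528 in DMBA. The sum was highest on DMBA 1, and most of it came from Krt14, Krt5 and Krt15. Every DMBA array lay below every vehicle array in 2 of the 10, the stem cell genes Lgr5 (log2 fold change -0.64, SE 0.22) and Sox9 (-0.50, SE 0.24). Of all genes, 5.17% had that pattern. At unadjusted p under 0.05 (limma) 1 of the 10 was lower, Lgr5, and 0 were higher. Markers of other cells were also read. Of the 5 red blood cell markers, 4 were on the array. They summed to 0.40 to 4.21 in vehicle and 0.76 to 5.19 in DMBA, highest on vehicle 1 and DMBA 1. The 8 melanocyte markers summed to 2.95 to 4.46 in vehicle and 4.14 to 6.75 in DMBA, the 7 fibroblast markers to 1.49 to 3.59 and 3.14 to 4.21, the 4 endothelial markers to 2.40 to 2.51 and 2.36 to 3.79, and the 10 leukocyte markers to 91.8 to 115.0 and 88.3 to 142.7, nearly all of it from the Itgam probe. Ly6a, the gene of the excluded ScaI antigen, lay at -1.22 ± 0.88 in vehicle and 0.23 ± 0.09 in DMBA, and like Ier2 and Fosb it had every DMBA array above every vehicle array. Of the 5 fibroblast markers tested, Dcn (1.51, SE 0.25, unadjusted p 0.000799, limma) and Col1a1 (1.29, SE 0.57) had every DMBA array above every vehicle array. That pattern was found in 4.87% of all genes. The leukocyte marker H2-Eb1 (a mean level of -2.70 ± 0.50 in vehicle and -0.40 ± 0.73 after DMBA, unadjusted p 0.00193, limma) had it too. So did Eng (1.14, SE 0.57), of 3 endothelial markers tested. H2-Aa of leukocytes had every DMBA array below every vehicle array (-0.49, SE 0.23). Means were also lower for Cd74 (-0.54), Lyz2 (-0.30), Cd3g (-0.19), Adgre1 (-0.17), Ptprc (-0.09), Col3a1 (-0.52) and Pecam1 (-0.51). They were higher for Cd3e (0.18), Cd207 (0.16), Itgam (0.07), Col1a2 (0.51), Vim (0.53) and Kdr (0.05). The melanocyte genes Mlana (2.72, SE 0.95) and Tyrp1 (3.35, SE 1.32, with 1 vehicle array well above background) had higher means with overlapping groups. Tyr had a value of 0.10, while Kit (-1.24, SE 0.73), Pmel (-0.47), Sox10 (-0.43), Mitf (-0.08) and Dct (-0.05) had lower means. No marker passed after adjustment (limma over all genes), and the smallest adjusted p was 0.445, for Dcn. Of the defining markers, Pdgfra of fibroblasts did not exceed background on any array, while Ptprc of leukocytes and Dct of melanocytes were on every array. In bulk RNA, a change in the share of cells and a change in RNA per cell cannot be told apart, and the part of other cells in the values of the members was not tested.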

How the data were processed

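Agilent Feature Extraction, version 10.7.1.1 per the submitters' processing notes, read the 6 arrays, whose probe annotation names build mm9, per the file headers; the scanner files hold background-corrected spot intensity on a linear scale, per the file headers. The deposited series matrix also holds intensity, with the 75th percentile of every column close to 1 (1.004 to 1.007), by a scaling no header or label records, and followed the scanner values on the log2 scale (r at least 0.9999); it was an alternative only.

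Values were log2 gProcessedSignal minus log2 of the array's 75th percentile over non-control spots (limma 3.58.1 in R 4.3.3). The 3671 control spots were left out, outlier spots were missing (45 probe values), and spots of a probe were averaged. A probe was kept if 3 or more arrays read it well above background (44955 probes), and all 11 member probes were among them. Accessions without version were matched to GRCm38.p6 symbols (28331 probes). The kept probe of highest mean stood for a gene, which gave 17848 genes; in 15 of them, no member included, an array was missing. DMBA was compared with vehicle with lmFit and eBayes, two-sided, without covariates, adjusted by Benjamini-Hochberg at 0.05, and the script was tested on simulated data. All 10 members are named, and of each other list up to 3 genes per direction by smallest p, of which some are not reported here. The members and lists were chosen with earlier results of these data known. The planned normexp alternative (offset 50) used the median spot signal, since the files have no mean signal column. Precision is limited by 3 arrays per group, with no saturated spot (0). The replicate numbers did not pair the arrays (correlation of deviations of same-numbered arrays 0.02, -0.02 and 0.06).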

Additional observations from a re-analysis of the deposited data

How the results depend on the processing

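The count of members past the threshold was 0 in all 15 alternatives: no filter on dim probes, normexp background, quantile normalization, the deposited matrix, the mean of a gene's probes, all probes as rows, slide as a block, the replicate block, the share of probes above background as a covariate, and each array left out. The count of all genes past it was 0, except 1 without vehicle 2. Members at unadjusted p under 0.05 numbered 1 in the main analysis, 2 with normexp and with the covariate, 0 with slide as a block, and 0 to 2 when single arrays were left out. Their median log2 fold change of 0.47 was 0.22 with slide as a block (the same as without vehicle 1) and 0.22 to 0.61 when single arrays were left out. The replicate block left the median at 0.47 and the members' counts at 0 and 1. In the further lists it moved counts at unadjusted p: kinases lower from 2 to 0, AP-1 targets lower from 0 to 1 and other immediate early genes higher from 4 to 3; it brought no gene past the adjusted threshold. Among single genes, the log2 fold change of Fos turned sign with slide as a block (0.027) and ran from -0.74 to 0.027 when single arrays were left out. That of Fosl2 turned with the mean of its probes (0.079) and that of Hspa1a with slide as a block (-0.25; -0.25 to 0.80 when single arrays were left out). Atf3 ran from -0.24 to 1.12 and Hspe1 from -0.027 to 0.14 when single arrays were left out. The alternatives for the further lists were added after the data had been seen. Fosl1 and Atf3 are read near the dim end of the arrays, where the spread between arrays is widest.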
